A study of Mus musculus with 10 samples.

Results

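The interferon response and MHC class I genes of the OP9 stromal cell line were described here as a set of 40 genes chosen by name. Of these, 39 were found under their own symbol and H2-D1 by its gene identifier (ENSMUSG00000073411, listed as H2-L), so all 40 were among the 26888 genes of the table. They comprised 2 chains of the type I interferon receptor, 6 transcription factors, 16 antiviral effectors, 2 sensors of viral RNA, 2 genes of the ISG15 system, 4 class I chains, 3 genes of peptide loading and 5 subunits of the immunoproteasome and its activator.

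Type I interferons bind a surface receptor made of the IFNAR1 and IFNAR2 chains, whose kinases activate STAT proteins; these join IRF9 and switch on genes that carry an interferon-stimulated response element in their promoters. The products include proteins that bind viral RNA, block virus entry or modify other proteins, and they raise the supply of peptides to MHC class I molecules. Class I molecules pair a heavy chain with β2-microglobulin and display peptides that the proteasome cuts, the TAP transporter carries into the endoplasmic reticulum and tapasin helps to load.

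RNA was sequenced from OP9 cells, a stromal line from calvaria of (C57BL/6xC3H)F2-op/op mice, labelled as foetal and described in the study's text as newborn, which lack functional M-CSF. There were 6 reaggregates, made from trypsin-dispersed cells, kept on nitrocellulose filters where medium meets gas for 48 h and freed with collagenase and dispase, of which 3 (numbers 2, 4 and 6) received IL-3 (labelled as 200 µg/µl) and 3 (numbers 1, 3 and 5) did not. The 4 flat cultures were kept under medium. Numbers 2 and 4 were labelled as de Bruijn lab cells, and numbers 1 and 3 named no group. The study's methods say that flat cells had been kept by the group of A. Medvinsky or that of M. de Bruijn. No label names the Medvinsky group, and the reaggregates carried no source label. The source of the cells and the form of culture therefore cannot be told apart in a comparison of reaggregates with the de Bruijn flat cultures, and p-values measure the spread between libraries that the labels do not describe as separate experiments.

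Values were reads on a gene per 1 M reads on all genes of the library (RPM). The commonest value above 0 in each library was taken as 1 read, although reads divided between genes gave smaller values. This put 1 read at 0.106 to 0.136 RPM and the libraries at 7.35 to 9.43 M reads on genes. On that scale 3 reads, the most that a listed 0 allows, came to 0.318 to 0.408 RPM. These limits cover counting error only. Of the 40 genes, all rose above 0.5 RPM in at least 1 library and were tested, although Ifitm1 did so only in flat culture 1.

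The cells carried their stromal label in most of its markers. Col1a1 lay between 5400 and 7190 RPM in the reaggregates and between 698 and 4440 RPM in the flat cultures, and Pdgfra between 311 and 446 RPM and between 89.0 and 160 RPM. In contrast, Thy1 never exceeded 0.359 RPM and Nt5e never exceeded 0.972 RPM. Mcam, at 1.59 to 9.1 RPM over all 10 libraries, and Eng, at 1.28 to 4.03 RPM, were also low. A gene was called at a limma adjusted p of at most 0.05 with a change of at least 2-fold. Of the 12 stromal markers 11 were tested. Of these 5 were called higher in reaggregates (Pdgfra, Pdgfrb, Col1a1, Col1a2 and Vcam1, against 7.32% of all genes tested) and 1, Kitl, lower (6.53%). The 12 summed to between 19305 and 26924 RPM in the reaggregates and to 11701, 16744, 19288 and 12375 RPM in flat cultures 1 to 4. Col1a2 was the most abundant in the reaggregates and Vim in the flat cultures. Cxcl12 stood at 125 and 662 RPM in flat cultures 1 and 3, at 4560 and 3990 RPM in flat cultures 2 and 4, at 2220 and 2300 RPM in reaggregates 3 and 4 and between 546 and 898 RPM in the other reaggregates. It did not pass between the flat sources (log2 difference 3.89, limma adjusted p = 0.061) and was called lower in reaggregates than in the de Bruijn source (-2.03, adjusted p = 0.014). Among leukocyte markers, Ptprc and Emr1 were listed at 0 in all 10 libraries. The 13 macrophage and leukocyte markers summed to between 18.8 and 37.4 RPM in the reaggregates and to 59.4, 22.6, 48.3 and 19 RPM in flat cultures 1 to 4, with Lyz2 as the most abundant except in flat culture 2, where Cd68 was. Of the 4 dendritic cell markers Itgax and Flt3 never exceeded 0.119 RPM, and their summed level, from 260 to 354 RPM in the reaggregates and 85, 62.5, 183 and 48.1 RPM in flat cultures 1 to 4, was nearly all Tcf4, which was called higher in reaggregates. The part of these markers in the results below was not tested.

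Between reaggregates and all 4 flat cultures, 6 of the 40 genes were higher and 1 was lower at a limma adjusted p of at most 0.05, which 13.6% and 15.7% of the 16933 genes tested also reached. With a change of at least 2-fold as well, 5 were called higher (7.32% of all genes) and 1 lower (6.53%). The median log2 fold change was 0.46 over the 40 genes and 0.04 over all genes, and it was 0.39 and 0.45 over the 40 genes under quantile normalization and median-ratio scaling. Without flat culture 2 or flat culture 4 there was 1 call, without flat culture 3 there were 11, and without reaggregate 1, 2, 3 or 4 there were 3. No member was called when consecutive reaggregates were averaged, or when only those with or only those without IL-3 were kept, and limma then had fewer samples. The shares of all genes called in these reduced fits are not given here. Whether the changed counts are particular to the 40 genes was therefore not tested.

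In the de Bruijn flat cultures 8 of the 40 genes were called lower than in the flat cultures with no group named, against 3.87% of all genes, and 0 were called higher, against 1.82%. The 8 were Ifnar1, Irf1, Ifit1, Ifitm3, Isg15, H2-K1, H2-D1 and H2-T23. With no filter all 8 calls ended, and with median-ratio scaling some of them did. The median log2 difference was -1.03 over the 40 genes and -0.17 over all genes. Both de Bruijn libraries lay below both others for 29 genes (34.1% of all genes) and above them for 1 (18.2%), and below all 8 other libraries, reaggregates included, for 24 (19.1% of all genes). The 24 include Ifitm1, at 0.0502 and 0.051 RPM in the de Bruijn libraries and 0.0862 to 0.417 RPM in the reaggregates, under the level of 3 reads in all of these libraries except reaggregate 6. Leaving out any 1 of the 4 flat cultures brought the 8 calls to 0; a single library then stood for its source and was assumed to vary like the rest. The study's methods name passage number as another difference between OP9 libraries. They judged the variance that came with cell source to be equivalent to that of passage, and pooled the sources. Since the labels do not give passage number, passage and source cannot be told apart here. In bulk RNA, fewer cells with a transcript and less of it per cell cannot be told apart.

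Set against each flat source separately, the same 6 reaggregates gave unlike counts. Against the flat cultures with no group named, 2 genes were higher and 2 lower at an adjusted p of at most 0.05 (6.60% and 11.2% of all genes), with 0 called higher at 2-fold (3.70%) and 1 lower (6.17%). Against the de Bruijn flat cultures, 23 were higher and 2 lower (25.3% and 21.6%), with 18 called higher (15.2%) and 2 lower (10.5%). The median log2 fold change of the 40 genes was 0.08 against the first source and 0.89 against the second, and that of all genes was -0.05 and 0.13. These comparisons share their reaggregates and are given side by side only. Both treated the 6 reaggregates as independent, although consecutive ones correlated at 0.499, 0.724 and 0.764. No values with consecutive reaggregates averaged are given for either source.

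**Figure D1:**
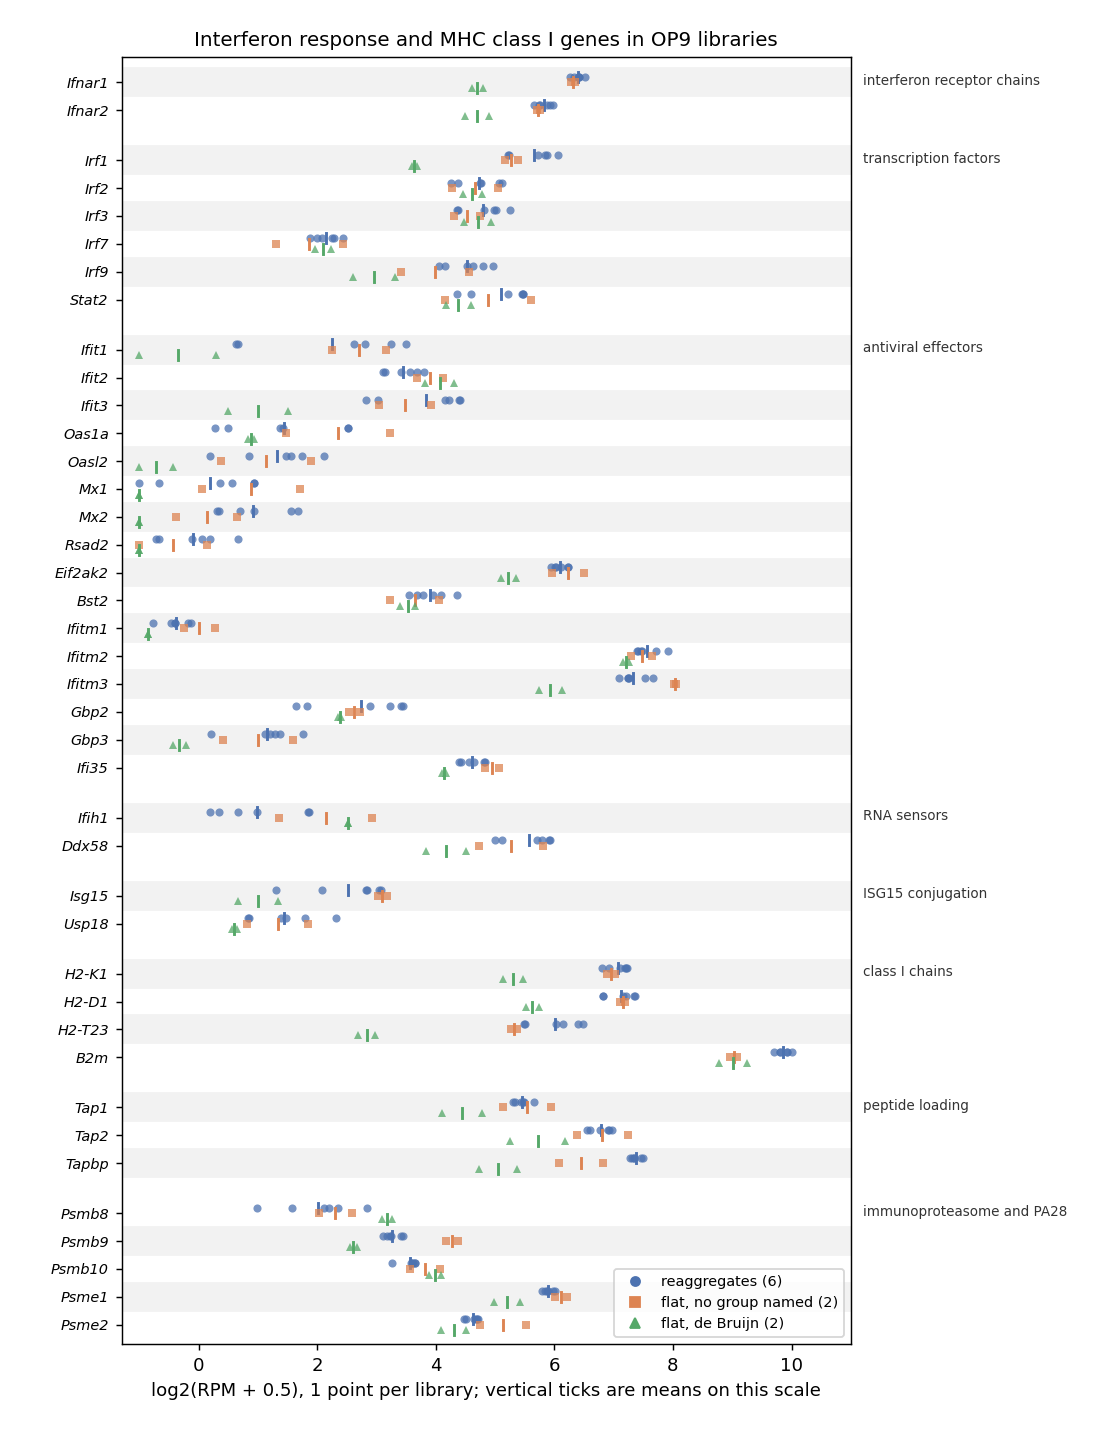
Values of the 40 genes in every library as log2(RPM + 0.5), with the genes grouped by role, 1 point per library (circles, 6 reaggregates; squares, flat cultures 1 and 3; triangles, de Bruijn flat cultures 2 and 4) and vertical ticks at the group means. For 24 genes both triangles lie to the left of all 8 other points, and for B2m all 6 circles lie to the right of all 4 flat cultures.

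Ifnar1, the receptor chain that triggers signalling, ranged from 76.3 to 91.4 RPM in the reaggregates with a median of 84.2 RPM, and stood at 76.8 and 81.1 RPM in flat cultures 1 and 3 and at 23.9 and 27.3 RPM in flat cultures 2 and 4. The de Bruijn libraries were low, and the other flat cultures lay within the range of the reaggregates. It was lower in the de Bruijn flat cultures by limma (log2 difference -1.61, SE 0.26, adjusted p = 0.0326). The ligand-binding partner Ifnar2 ranged from 49.9 to 62.3 RPM (median 55.9 RPM) in the reaggregates, against 51.8 and 53.3 RPM in flat cultures 1 and 3 and 29.2 and 22 RPM in flat cultures 2 and 4. The de Bruijn libraries were again the lowest, but the difference between flat sources did not pass (log2 difference -1.04, limma adjusted p = 0.106).

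Among the transcription factors, Irf1, which interferon gamma induces and which drives class I genes, ranged from 36.7 to 66.1 RPM (median 54.8 RPM) in the reaggregates, with 41.2 and 35.4 RPM in flat cultures 1 and 3 and 11.6 and 12.3 RPM in flat cultures 2 and 4. Reaggregates 5 and 6 overlapped the flat cultures with no group named, and the de Bruijn libraries lay below every other library. It was called higher in reaggregates than in the 4 flat cultures (log2 fold change 1.21, SE 0.362, limma adjusted p = 0.0287), which ended without reaggregate 1, 2, 3 or 4 or flat culture 2 or 4 (adjusted p = 0.0554 to 0.0989). The difference was 2.02 against the de Bruijn source and 0.39 against the other (adjusted p = 0.00013 and 0.294).

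Irf9, the DNA-binding part of the complex formed with STAT proteins, ranged from 16.1 to 30.6 RPM (median 23.4 RPM) in the reaggregates and stood at 10.2 and 23.2 RPM in flat cultures 1 and 3 and at 5.61 and 9.46 RPM in flat cultures 2 and 4. Flat culture 3 fell among the reaggregates and the other flat cultures fell below them. It was called higher in reaggregates (log2 fold change 1.04, SE 0.331, limma adjusted p = 0.0354), with 1.56 against the de Bruijn source and 0.53 against the other (adjusted p = 0.00162 and 0.301). The call ended without reaggregate 1, 2, 3 or 4 or flat culture 1, 2 or 4 (limma adjusted p = 0.0644 to 0.0961).

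Stat2, a partner of IRF9, ranged from 20.1 to 44.0 RPM (median 39.8 RPM), against 17.3 and 48.4 RPM in flat cultures 1 and 3 and 23.6 and 17.5 RPM in flat cultures 2 and 4. Irf3, which acts early after virus sensing, ranged from 19.9 to 37.5 RPM (median 29.4 RPM), against 19.4 and 26.4 RPM and 21.7 and 30.1 RPM. For both genes the groups overlapped, and neither passed in any comparison; Irf2 (18.6 to 34.1 RPM over all 10 libraries) and Irf7 (1.96 to 4.92 RPM) did not either.

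Among the 16 antiviral effectors, 1 (6.25%) was called higher in reaggregates than in flat cultures, a share no larger than the 7.32% of all genes, and 2 (12.5%) were called lower in the de Bruijn flat cultures, against 3.87% of all genes. Mx2, of the Mx family of GTPases, ranged from 0.742 to 2.68 RPM (median 1.26 RPM) in the reaggregates and stood at 0.271 and 1.06 RPM in flat cultures 1 and 3, and it was listed at 0 in flat cultures 2 and 4. Flat culture 3 fell within the reaggregates and the other flat cultures below them. Its log2 fold change was 1.35 (SE 0.388, limma adjusted p = 0.0238) on the log2(RPM + 0.5) scale, which understates changes at such low levels. Its adjusted p rose to between 0.0501 and 0.0834 without reaggregate 1 or 2 or flat culture 2 or 4. The log2 fold change was 0.79 against the flat cultures with no group named (limma adjusted p = 0.242). It was 1.92 against the de Bruijn ones (limma adjusted p = 0.00298), a value that depends on the 0.5 added.

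Ifit1, which binds viral RNA lacking the methylated cap of host messages, ranged from 1.05 to 10.8 RPM (median 6.09 RPM) in the reaggregates, with 4.28 and 8.42 RPM in flat cultures 1 and 3, 0.724 RPM in flat culture 2 and a listed 0 in flat culture 4. Reaggregates 3 and 4, at 1.09 and 1.05 RPM, came close to the de Bruijn libraries, and the rest lay far above. It was called lower in the de Bruijn flat cultures (log2 difference -3.06, SE 0.568, limma adjusted p = 0.0455), and against all 4 flat cultures the reaggregates did not differ past the threshold (adjusted p = 0.34).

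Ifitm3, a membrane protein that stops viruses in endosomes, ranged from 135 to 202 RPM (median 151 RPM) in the reaggregates and stood at 259 and 265 RPM in flat cultures 1 and 3 and at 69.1 and 53.0 RPM in flat cultures 2 and 4. The reaggregates lay between the flat sources without overlap on either side. The difference was -0.70 (SE 0.164) against the source with no group named and 1.40 (SE 0.175) against the de Bruijn source (limma adjusted p = 0.0217 and 0.000199), and the de Bruijn cultures differed from the others by -2.10 (SE 0.274, adjusted p = 0.0183). Against all 4 flat cultures the log2 fold change was 0.35 (adjusted p = 0.546), and without flat culture 4 it was -0.066.

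The related Ifitm2 varied less, from 167 to 242 RPM (median 176 RPM) in the reaggregates, with 200 and 157 RPM in flat cultures 1 and 3 and 142 and 153 RPM in flat cultures 2 and 4. Eif2ak2, the RNA-dependent kinase that halts translation, ranged from 61.2 to 74.8 RPM (median 66.7 RPM), against 62.0 and 90.5 RPM in flat cultures 1 and 3 and 33.6 and 40.5 RPM in flat cultures 2 and 4. For Ifitm2 the de Bruijn libraries were the lowest by a small margin, and for Eif2ak2 by a wide one (log2 difference of reaggregates from the de Bruijn source 0.87, SE 0.133, limma adjusted p = 0.000643).

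Ifit3, a partner of IFIT1, ranged from 6.54 to 20.7 RPM (median 17.8 RPM) in the reaggregates, with 7.76 and 14.7 RPM in flat cultures 1 and 3 and 2.33 and 0.917 RPM in flat cultures 2 and 4. Oasl2, of the oligoadenylate synthetase family, ranged from 0.64 to 3.85 RPM (median 2.36 RPM), with 0.806 and 3.23 RPM in flat cultures 1 and 3, a listed 0 in flat culture 2 and 0.243 RPM in flat culture 4. Gbp3, an interferon-induced GTPase, ranged from 0.653 to 2.88 RPM (median 1.88 RPM), with 0.832 and 2.52 RPM in flat cultures 1 and 3 and 0.239 and 0.364 RPM in flat cultures 2 and 4. For each of these genes the de Bruijn libraries lay below all others and the other flat cultures fell within the range of the reaggregates. They were called higher in reaggregates than in the de Bruijn source, with log2 fold changes of 2.83, 2.04 and 1.48, and Ifi35 passed at 0.47. None of the 4 passed against the other source. In flat cultures 2 and 4 Oasl2 lay under the level of 3 reads and Gbp3 under or close to it. The fold changes of Oasl2 and Gbp3 therefore depend on the 0.5 added.

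Ifit2, Oas1a, Mx1, Rsad2, Bst2, Ifitm1 and Gbp2 passed in no comparison, and of these only Bst2 (8.86 to 20 RPM) and Ifit2 (8.17 to 19.3 RPM) stayed above 5 RPM in every library. Reads of Ifit, Ifitm, Oas, Mx and Gbp paralogs could be divided between family members, so the split within a family is uncertain.

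The RNA sensors differed from the de Bruijn flat cultures in opposite directions. Ifih1, the sensor of long double-stranded RNA, ranged from 0.640 to 3.13 RPM (median 1.28 RPM) in the reaggregates and stood at 2.07 and 7.07 RPM in flat cultures 1 and 3 and at 5.25 and 5.22 RPM in flat cultures 2 and 4. Flat culture 1 fell within the reaggregates, the other flat cultures above them. It was the only member called lower in reaggregates than in the 4 flat cultures (log2 fold change -1.35, SE 0.413, limma adjusted p = 0.0307), a call that ended without reaggregate 3, 4 or 5 or flat culture 2, 3 or 4 (adjusted p = 0.0535 to 0.0855). Against the de Bruijn source it was -1.54, and against the other it was -1.16 and did not pass (limma adjusted p = 0.022 and 0.184). Ddx58, which senses RNA ends with a triphosphate, ranged from 31.6 to 60.5 RPM (median 53.5 RPM), against 26.0 and 55.8 RPM in flat cultures 1 and 3 and 22.2 and 13.7 RPM in flat cultures 2 and 4. Flat culture 3 fell among the reaggregates and flat cultures 1, 2 and 4 below them, the de Bruijn ones lowest. It was called higher in reaggregates than in the de Bruijn source (log2 fold change 1.41, SE 0.293, limma adjusted p = 0.00342). Against the other source it did not pass (0.31, limma adjusted p = 0.563).

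Isg15, the ubiquitin-like protein attached to other proteins after interferon, ranged from 1.96 to 7.90 RPM (median 6.61 RPM) in the reaggregates, with 7.6 and 8.5 RPM in flat cultures 1 and 3 and 2.03 and 1.09 RPM in flat cultures 2 and 4. Reaggregate 3 overlapped the de Bruijn libraries, which were called lower than the other flat cultures (log2 difference -2.09, SE 0.397, limma adjusted p = 0.0476). Usp18, the protease that removes ISG15 and dampens the receptor, ranged from 1.28 to 4.49 RPM (median 2.20 RPM), against 1.27 and 3.11 RPM in flat cultures 1 and 3 and 1.07 and 0.972 RPM in flat cultures 2 and 4. It passed in no comparison.

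The class I heavy chains H2-K1 and H2-D1, which present peptides to cytotoxic T cells, had nearly the same pattern. H2-K1 ranged from 111 to 149 RPM (median 142 RPM) in the reaggregates and stood at 118 and 129 RPM in flat cultures 1 and 3 and at 43.7 and 34.4 RPM in flat cultures 2 and 4. H2-D1 ranged from 113 to 163 RPM (median 145 RPM), against 138 and 145 RPM in flat cultures 1 and 3 and 52.8 and 45.5 RPM in flat cultures 2 and 4. For both, the flat cultures with no group named lay inside the reaggregate range and the de Bruijn ones far below it. The log2 differences between flat sources were -1.66 (SE 0.269) and -1.52 (SE 0.254), with limma adjusted p = 0.0333 and 0.0358.

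H2-T23, which encodes the nonclassical molecule Qa-1, ranged from 44.2 to 88.7 RPM (median 67.6 RPM) in the reaggregates and stood at 41.0 and 38.1 RPM in flat cultures 1 and 3 and at 7.40 and 5.93 RPM in flat cultures 2 and 4. All 6 reaggregates exceeded all 4 flat cultures, as for 3 of the 40 genes and 7.80% of all genes, although reaggregates 3 and 4, at 44.2 and 44.9 RPM, were barely above flat culture 1. It was called higher in reaggregates (log2 fold change 1.93, SE 0.519, limma adjusted p = 0.018). The difference was 3.17 (SE 0.281) against the de Bruijn source and 0.68 (SE 0.284) against the other, where it did not pass (adjusted p = 2.49e-05 and 0.125), and it was -2.49 (SE 0.312, adjusted p = 0.0167) between the flat sources. Without flat culture 2 or flat culture 4 the comparison with all flat cultures did not pass (limma adjusted p = 0.0526 and 0.0612). Heavy-chain genes share long stretches of sequence, and divided reads make the level of each uncertain.

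B2m, the light chain of every class I molecule, ranged from 834 to 1030 RPM (median 934 RPM) in the reaggregates, with 501 and 542 RPM in flat cultures 1 and 3 and 609 and 438 RPM in flat cultures 2 and 4. Every reaggregate was above every flat culture, and the flat sources overlapped. The log2 fold change was 0.84 against all flat cultures (SE 0.145, limma adjusted p = 0.00222), 0.84 against those with no group named and 0.85 against the de Bruijn ones (adjusted p = 0.0055 and 0.00231). It stayed under 2-fold, and its adjusted p did not exceed 0.00772 with any 1 library left out, although it was 0.0629 with consecutive reaggregates averaged.

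Tapbp, which encodes tapasin, ranged from 155 to 180 RPM (median 162 RPM) in the reaggregates and stood at 67.3 and 112 RPM in flat cultures 1 and 3 and at 40.9 and 26.0 RPM in flat cultures 2 and 4. The reaggregates were tightly grouped above all flat cultures, and the de Bruijn libraries were the lowest. It was called higher in reaggregates (log2 fold change 1.62, SE 0.314, limma adjusted p = 0.00402), and it passed against each source, with 0.92 (SE 0.179) against the one with no group named and 2.32 (SE 0.162) against the de Bruijn one (adjusted p = 0.0101 and 5.57e-06). With consecutive reaggregates averaged its adjusted p was 0.0687.

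The transporter subunits did not share that pattern. Tap2 ranged from 93.3 to 125 RPM (median 114 RPM) in the reaggregates, against 82.7 and 150 RPM in flat cultures 1 and 3 and 72 and 37.6 RPM in flat cultures 2 and 4, and Tap1 from 38.9 to 49.8 RPM (median 43.3 RPM), against 34.7 and 60.8 RPM and 26.8 and 16.7 RPM. Flat cultures 1 and 3 lay on either side of the reaggregates for both genes. Both were called higher than in the de Bruijn source (log2 fold changes 1.07 and 1.01, SE 0.223 and 0.182, limma adjusted p = 0.0036 and 0.0016), with -0.02 and -0.09 against the other source.

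**Figure D2:**
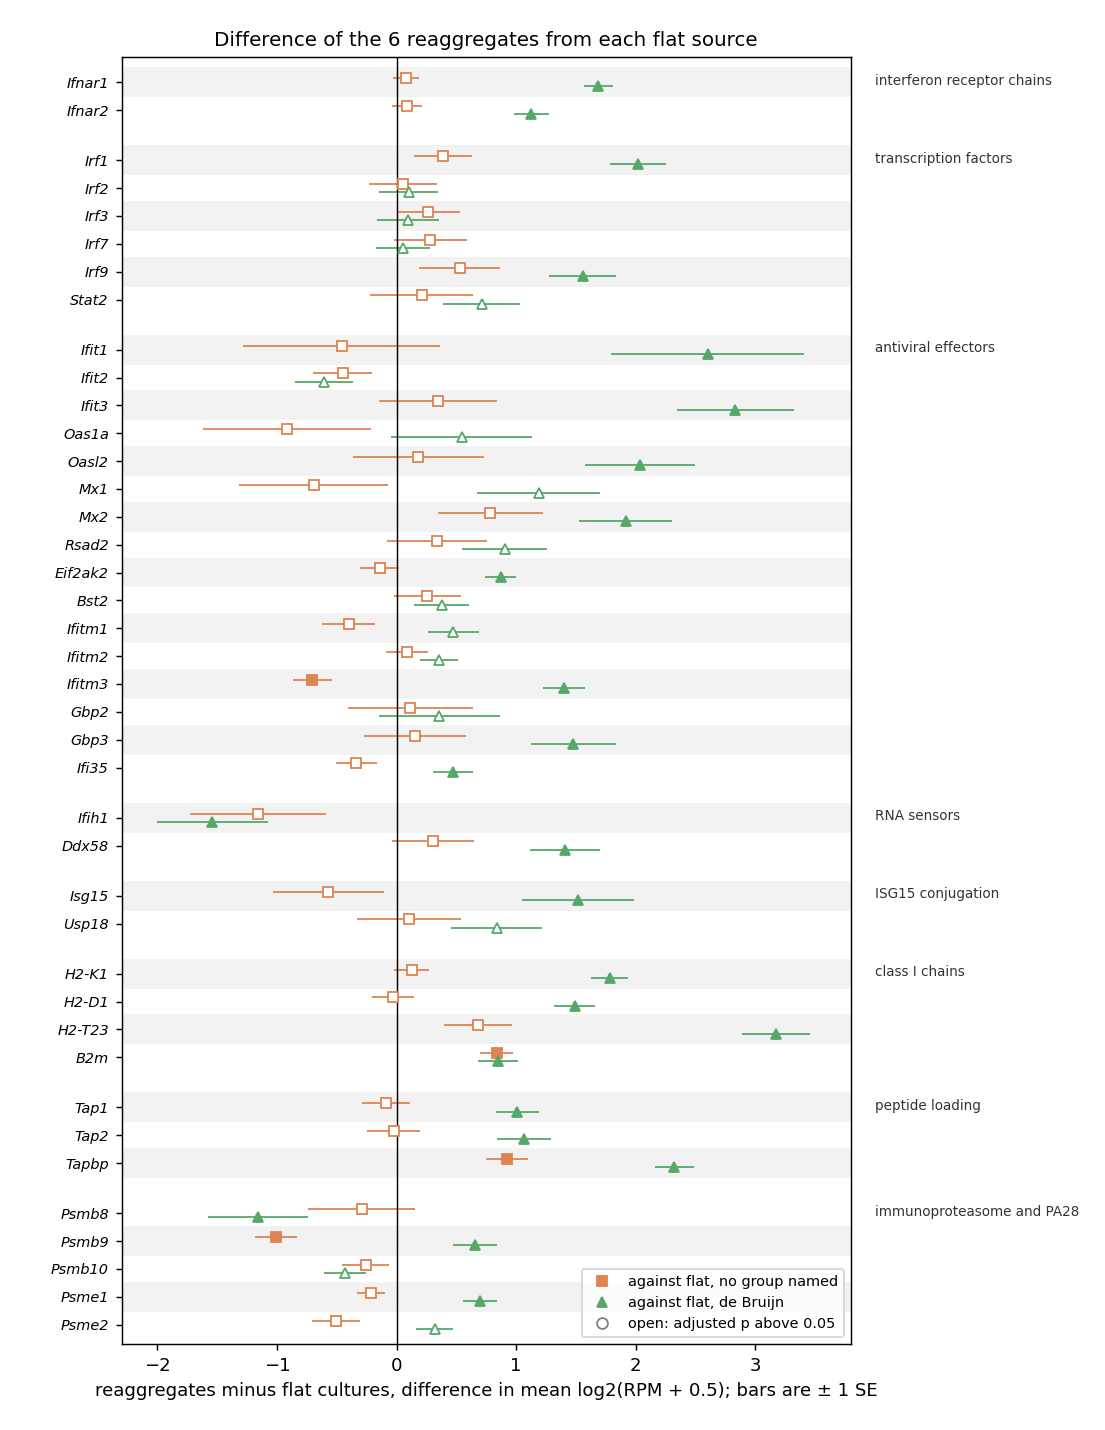
Difference in mean log2(RPM + 0.5) between the 6 reaggregates and each flat source for the 40 genes (squares, against flat cultures 1 and 3; triangles, against de Bruijn flat cultures 2 and 4), with bars of ± 1 SE and filled symbols at an adjusted p of at most 0.05. Of the squares 4 are filled (Tapbp and B2m above 0, Ifitm3 and Psmb9 below), and of the triangles 25, with Ifih1 and Psmb8 below 0. Mx1, Mx2 and Rsad2 were listed at 0 in both de Bruijn libraries, so their triangles depend on the 0.5 added. The triangles of Ifit1, Oasl2, Gbp3 and Ifitm1 also depend on it, with at least 1 de Bruijn library under the level of 3 reads.

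Among the proteasome genes the highest reaggregate exceeded the lowest by a ratio of 1.16 to 1.31, except for Psmb8, with 4.46. Psme1, a subunit of the PA28 activator, ranged from 54.9 to 63.6 RPM (median 58.6 RPM), against 73.9 and 63.8 RPM in flat cultures 1 and 3 and 31.0 and 42.3 RPM in flat cultures 2 and 4. Its partner Psme2 ranged from 21.8 to 25.6 RPM (median 24.8 RPM), against 45.4 and 26.2 RPM and 16.6 and 22.2 RPM. For both, the flat cultures with no group named lay above all reaggregates, and the de Bruijn ones below them or, for flat culture 4 and Psme2, inside their range.

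The catalytic subunits of the immunoproteasome, which replace constitutive ones under interferon, each behaved differently. Psmb9 ranged from 8.14 to 10.4 RPM (median 8.89 RPM) in the reaggregates, against 20.3 and 17.5 RPM in flat cultures 1 and 3 and 5.87 and 5.34 RPM in flat cultures 2 and 4. As for Ifitm3, the reaggregates lay between the sources: the log2 fold change was -1.01 (SE 0.173) against the one and 0.66 (SE 0.183) against the de Bruijn one (limma adjusted p = 0.0058 and 0.0151). Psmb8 ranged from 1.49 to 6.64 RPM (median 3.97 RPM), against 3.57 and 5.51 RPM and, in the de Bruijn libraries, 9.07 and 8.02 RPM; it was the only member whose de Bruijn libraries both exceeded the other flat cultures, and it was called lower in reaggregates than in that source (log2 fold change -1.16, SE 0.42, adjusted p = 0.0447). Psmb10 (9.13 to 16.5 RPM over all libraries) passed in no comparison. Psmb9 and Tap1 overlap on opposite strands at chr17:34324498-34324697 (NCBIM37), where reads of the genes cannot be told apart unless counted by strand, which is not given in the sources used here.

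Per kilobase of exon, the mean level in the reaggregates was 1085 RPM per kb for B2m, 292 RPM per kb for Ifitm2 and 239 RPM per kb for Ifitm3. H2-D1, H2-K1 and Tapbp followed at 54.1, 52.0 and 50.2 RPM per kb, levels that the spread between libraries does not separate. At the other end were Ifih1, Ifitm1, Mx1 and Rsad2, at 0.307, 0.249, 0.215 and 0.113 RPM per kb. On this scale the light chain was therefore far more abundant than any heavy chain, and receptor chains, at 14.4 RPM per kb for Ifnar2 and 14.2 RPM per kb for Ifnar1, did not differ beyond their spread.

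The reaggregates also differed among themselves. Reaggregates 3 and 4 were both below the other 4 for 17 of the 40 genes (19.9% of all genes), reaggregates 5 and 6 for 12 (33.2%) and reaggregates 1 and 2 for 2 (8.95%). Both were above the other 4 for 7 genes in reaggregates 3 and 4 (18.8% of all genes), for 6 in reaggregates 5 and 6 (16.6%) and for 12 in reaggregates 1 and 2 (18.8%). The 17 comprised 10 of the 16 antiviral effectors, both RNA sensors, both genes of the ISG15 system and the 3 heavy chains, and no receptor chain, transcription factor, peptide loading gene or proteasome gene. In reaggregates 3 and 4 the 13 leukocyte markers summed to 19.2 and 18.8 RPM, against 33.6, 37, 35.2 and 37.4 RPM in reaggregates 1, 2, 5 and 6, with Lyz2 at 7.28 and 9.2 RPM against 19.7, 20.1, 23 and 25 RPM. The 7 adipocyte markers summed to 627 and 692 RPM in reaggregates 3 and 4, against 354, 354, 263 and 279 RPM in the others. Most of the sum was Lpl, at 508 and 558 RPM in reaggregates 3 and 4 and 164 to 252 RPM in the others. Fabp4 and Cebpa were also highest in reaggregates 3 and 4, whereas Cd36 was lowest there, at 1.42 and 1.02 RPM against 7.63 to 9.03 RPM. The part of either list in the lower values was not tested. The highest reaggregate exceeded the lowest by a ratio of 10.3 for Ifit1 and 7.36 for Oas1a, but of 1.16 for Tapbp. With only reaggregates 1, 2, 5 and 6 kept, a choice made after the values were seen, 3 genes were called against the flat cultures in place of 6. The share of all genes called in that fit is not given here, so whether the drop is particular to the 40 genes was not tested.

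IL-3, a growth factor for blood cells, was compared within the reaggregates. None of the 40 genes was called with IL-3 against without (0 of all 16933 genes in either direction by limma), and at an unadjusted p of at most 0.05 there were 0 of the 40 and 0.402% of all genes. The log2 fold changes ran from -0.33 for Psmb8 to 0.31 for Ifitm1, with a median of 0.01 for the 40 and for all genes. For no gene of the 40 did the libraries with and without IL-3 separate, as 1.16% of all genes did upward and 0.791% downward. Each consecutive pair held a library with and a library without IL-3. These pairs correlated at 0.499 to 0.764 and the other pairs at -0.706 to -0.139. The spread between pairs therefore entered the comparison and made separation unlikely, so the lack of calls and of separation is not read as absence of an effect. With consecutive reaggregates as a block, 0 were called as well, and the unadjusted p was at most 0.05 for 0 of the 40 and 564 of all genes.

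Other genes of the pathway were taken from a list of which 158 were found in the table and 136 were tested. Of 12 names listed for interferon genes 4 were found, and these were at the limit of detection: Ifna2 and Ifna4 were listed at 0 in all libraries, Ifnb1 reached 0.136 RPM in reaggregate 2 and 0.128 RPM in reaggregate 4, and Ifng 0.12 RPM in flat culture 3, each worth about 1 read. Of the 136 genes, 14 were higher (10.3%, against 13.6% of all genes) and 9 lower (6.62%, against 15.7%) in reaggregates than in flat cultures at an adjusted p of at most 0.05, and 5 (3.68%, against 7.32%) and 4 (2.94%, against 6.53%) were called at 2-fold. Between the flat sources 22 were called lower in the de Bruijn cultures (16.2%, against 3.87% of all genes) and 0 higher. The median log2 difference between sources was -0.56 over the 136 genes.

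Of those called between reaggregates and flat cultures, Ifi30, a lysosomal reductase that unfolds antigens, ranged from 42.6 to 51.2 RPM in the reaggregates and stood at 11.2, 12.4, 7.54 and 7.17 RPM in flat cultures 1 to 4. Every reaggregate exceeded every flat culture several-fold, and the flat sources overlapped (log2 fold change 2.26, limma adjusted p = 3.76e-05, and past the threshold under all 25 alternatives). Stat3 (log2 fold change 1.63), the lipid-presenting Cd1d1 (1.73) and Gbp10 (3.09; ENSMUSG00000054588, listed as Gbp11) were also called higher, Gbp10 not without flat culture 2 or 4 (limma adjusted p = 0.0639 and 0.0727). Irf5 (-1.96), the ubiquitin ligase Trim25 (-1.24) and the exonuclease Isg20 (-1.74) were called lower. Against the flat cultures with no group named alone, Stat3 (0.83), Gbp10 (1.04) and Trim25 (-0.63) did not pass (limma adjusted p = 0.113, 0.196 and 0.0934) and Cd1d1 (0.77) passed under 2-fold, whereas Ifi30 (2.27), Irf5 (-1.18) and Isg20 (-1.18) were called. Against the de Bruijn ones, which are compared with the same reaggregates, the log2 fold changes were 2.42 for Stat3, 5.15 for Gbp10, -1.84 for Trim25 and 2.69 for Cd1d1. That of Gbp10, at 0.462 and 0.081 RPM in flat cultures 2 and 4, depends on the 0.5 added. With consecutive reaggregates averaged, these calls ended except that of Ifi30 (limma adjusted p = 0.00907), with adjusted p from 0.0514 for Isg20 to 0.14 for Gbp10. The remaining calls, Irf4 upward and H2-M3 downward, were on genes under 5 RPM and are named here after their values were seen. Irf4 rose above 0.5 RPM only in the reaggregates (0.637 to 3.59 RPM, against at most 0.12 RPM in the flat cultures). It was tested only through the group where it was high, so its call, counted among the upward ones, adds no support. Of the 17 constitutive proteasome genes, 1 was higher (5.88%, against 13.6% of all genes) and 5 were lower (29.4%, against 15.7%) at an adjusted p of at most 0.05.

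Between the flat sources, 12 of the other pathway genes were named by adjusted p, and some were listed at 0 in the de Bruijn cultures. Ly6e, a lipid-anchored surface protein, ranged from 294 to 830 RPM in the reaggregates and stood at 483 and 555 RPM in flat cultures 1 and 3 and at 19.3 and 14.2 RPM in flat cultures 2 and 4 (log2 difference between flat sources -4.92, limma adjusted p = 0.0049). Aim2, a sensor of cytosolic DNA, ranged from 7.04 to 14.6 RPM, with 15.2 and 13.3 RPM in flat cultures 1 and 3 and a listed 0 in both de Bruijn libraries (adjusted p = 0.00552). Gbp9 ranged from 22.5 to 115 RPM, with 19.9 and 69.1 RPM in flat cultures 1 and 3, and was also listed at 0 in both de Bruijn libraries (adjusted p = 0.0101). For these genes no de Bruijn library came near any other. Gbp4, Gbp8, Gbp10, Sp100, Phf11, Ifi27l2a, Ifi203, Ifi204 and Trim30 were the other genes named by the rule for this comparison, and for each of these both de Bruijn libraries lay below the other 8. Of 10 alternatives, 4 ended the calls of Ly6e, Aim2 and Ifi204, and 5 ended each of the other calls among the 12. Leaving out any 1 flat culture ended each of these 12 calls.

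Some adipocyte markers differed between the flat sources in the opposite direction. These markers of fat cells, which OP9 cells can form, were 7 in number. Of them 4 were called higher in the de Bruijn cultures (1.82% of all genes), namely Fabp4, Plin1, Cd36 and Pparg. Adipoq, Lpl and Cebpa did not pass. Plin1 rose above 0.5 RPM only in flat cultures 2 and 4 (1.43 and 1.21 RPM). It was tested only through the group where it was high, so its call adds no support. The 7 summed to 1476 and 1566 RPM in flat cultures 2 and 4 and 375 and 535 RPM in flat cultures 1 and 3. In the reaggregates their sums lay between 263 and 692 RPM. Lpl, which did not pass, was the most abundant except in flat cultures 2 and 4, where Fabp4 was, and the defining marker Adipoq was at 0.358 and 0.121 RPM in flat cultures 2 and 4. Pparg stood at 395 and 295 RPM in flat cultures 2 and 4, 49.4 and 58.1 RPM in flat cultures 1 and 3 and 36.0 to 46.7 RPM in the reaggregates. Against the 4 flat cultures 3 of the 7 (Fabp4, Cebpa and Pparg) were called lower in reaggregates, as were 6.53% of all genes. Of the 13 leukocyte markers 8 were tested, and 1 of these, Lyz2, was called lower in the de Bruijn cultures (limma adjusted p = 0.0421), as were 3.87% of all genes tested. The part of these markers in the interferon and class I results was not tested. The 7 endothelial and the 6 T, B and NK cell markers summed to at most 1.64 and 0.897 RPM, and 1 of each list, Pecam1 and Cd4, was high enough to be tested and did not pass.

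Promoters were searched for 2 motifs. RefSeq promoters (GRCm38.p6), from 250 bases before to 50 after the start of the gene, were found for 36 of the 40 genes and not matched for Mx1, Mx2, Tap2 and Usp18. The core of the interferon-stimulated response element, GAAA followed after any 2 bases by GAAA and read on both strands, was present in 18 of 36 (50%) and in 3.99% of the promoters of 27025 genes. TTCNNNGAA, the gamma-activated site, which reads the same in both directions and overlapped the first motif in Ifitm3 and Bst2, was present in 11 of 36 (30.6%) and in 9.55% of all. Of the 8 genes called lower in the de Bruijn flat cultures, 4 held the first motif, 3 the second and 2, H2-K1 and H2-D1, neither. A match is a stretch of letters and not evidence of binding.

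The H2-T23 match lies before the RefSeq start but inside the gene as the NCBIM37 annotation gives it. The 80-base stretches around the motif are given for those 3 of the 8 genes where they lie wholly before the start in both annotations, on the strand of the gene with the motif in capitals (positions are on NCBIM37, by exact match of the RefSeq sequence). Irf1 at chr11:53583390-53583469 on the plus strand holds the gamma-activated site. Ifit1 at chr19:34715249-34715328 on the plus strand holds 2 matches to the response element in its reverse complement, and Isg15 at chr4:155574955-155575034 on the minus strand holds 3 overlapping matches.
Irf1: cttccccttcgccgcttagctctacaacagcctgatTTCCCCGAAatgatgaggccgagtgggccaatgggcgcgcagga
Ifit1: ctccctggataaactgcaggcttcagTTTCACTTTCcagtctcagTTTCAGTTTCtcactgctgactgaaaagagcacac
Isg15: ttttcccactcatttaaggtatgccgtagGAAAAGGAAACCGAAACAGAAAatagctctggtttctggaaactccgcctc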

How the data were processed

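RNA was sequenced from 6 OP9 reaggregates and 4 flat cultures. The authors aligned reads to NCBIM37 (mm9) with TopHat 1.2.0, counted them per Ensembl gene in GeneProf, divided reads with several matches between genes, and deposited RPM values. The deposited table also holds the authors' own log2 fold changes and adjusted p-values from DESeq for reaggregates against flat cultures, which were not used. Between 43.5% and 59.9% of values up to 10 RPM were whole multiples of 1 read within 0.05 reads, so no count model was fitted.

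Genes above 0.5 RPM in at least 1 library were tested with limma (version 3.58.1, R 4.3.3, trended variance) on log2(RPM + 0.5), with Benjamini-Hochberg adjustment over all genes tested. A call needed an adjusted p of at most 0.05 and a 2-fold change. The code was tested on simulated data. Alternatives were other pseudocounts (0.1 and 1), filters, scalings, sample subsets and blocks.

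Full values were given for members called in any comparison and for the 2 most abundant others per role. Of other pathway genes, up to 12 called per comparison with a group mean of at least 5 RPM were named by adjusted p. The members and lists were chosen with earlier results of these data known. Exon lengths came from GENCODE for NCBIM37.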

Additional observations from a re-analysis of the deposited data

Results flagged for a closer look

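Of 80 groups of values (40 genes in 6 reaggregates and in 4 flat cultures), 4 held a library far from the others, and chance gives about 4. Flat culture 3 was the high one for Oas1a, at 8.89 RPM against 2.29 RPM for the next, for Usp18, at 3.11 RPM against 1.27 RPM, and for Rsad2, at 0.599 RPM with the other flat cultures listed at 0. Reaggregate 1 was low for Psmb10, at 9.13 RPM against 11.5 RPM for the next. Flat culture 3 was the highest flat culture for 27 of the 40 genes (67.5%) and for 39.5% of all genes tested.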

How the results depend on the processing

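In reaggregates against flat cultures, 6 genes were called. There was 1 with no filter. There was also 1 with only the flat cultures with no group named (3.70% of all genes called higher and 6.17% lower). With only the de Bruijn ones there were 20 (15.2% and 10.5%). There were 3 with only reaggregates 1, 2, 5 and 6 and 2 with only reaggregates 3 to 6 (both chosen after seeing the data). There were 0 with only reaggregates with IL-3, only those without, or consecutive ones averaged. Leaving out 1 library gave 1 to 11. For the other alternatives in this section the share of all genes called is not given, so their counts are not read against all genes. Fewer samples or another flat source made these fits, and the cause of the loss without a filter was not tested. Of 8 calls between flat sources, 5 were left with median-ratio scaling, 0 with no filter (cause not tested) and 0 to 0 with 1 library left out. Quantile normalization moved the median of all genes by 0.22 between flat sources and median-ratio scaling by 0.15, and the share of all calls that were higher went from 32.0% to 44.7% and 38.4%; relative to all genes the members' median stayed lower (-0.84 against 0.05 and -0.86 against -0.02). IL-3 gave 0 calls throughout, 0 to 0 with 1 library left out.

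Of the 40 genes, 33 were higher on average than in all flat cultures and 22 than in those with no group named; the sign turned for 11, which were Mx1, Eif2ak2, Ifitm1, Ifi35, Tap1, Tap2, Psme1, Ifit1 (-0.46), Ifitm3 (-0.70), Isg15 (-0.57) and H2-D1 (-0.031), and for Ifitm3 also without flat culture 4 (-0.066, against 0.705 without flat culture 3). The replicate number as a block gave 4 calls; same-numbered libraries deviated together with correlations of -0.04, -0.21, 0.07 and 0.15, 1 reaggregate of 4 correlated best with its own number, and the numbers do not pair the samples. Consecutive reaggregates correlated at 0.50, 0.72 and 0.76 and the 12 other pairs from -0.71 to -0.14. At 7.35 to 9.43 M reads on genes, levels under about 0.4 RPM were not distinguished from 0.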
